A study of Mus musculus with 12 samples.

Results

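Large clones and singletons are T cells of mouse tumours from clusters with mostly CD8 cells, divided by how many cells of the same tumour carried the same T cell receptor. The name CD8 did not hold for all of them: in 212 of 756 singletons and in 8 large clones with 122 cells, Cd4 transcripts equalled or exceeded those of Cd8. The cells were those of clusters 0, 3 and 6 of the deposited cell table in which exactly 1 beta chain of the receptor (TRB) had been assembled. A clone was the set of such cells in 1 library with the same TRB V gene and the same nucleotide sequence of CDR3, the junction of the chain that contacts antigen. A clone of 10 or more cells was called large and a clone of 1 cell a singleton. Of 30749 cells in the table, 14085 lay in these clusters, 2638 of them without a TRB and 569 with 2 or more. The remaining 10878 cells formed 1546 clones, of which 206 were large with 7940 cells and 756 were singletons. The 584 clones of 2 to 9 cells, with 2182 cells, lie between the classes and are called middle clones. The members were thus chosen by measured values, the cluster of a cell and the number of cells of its clone, and both are given as a description. The rule did not use gene expression between the size classes, although the clusters were drawn from the expression of the same cells.

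The cells came from C57Bl/6 mice bearing subcutaneous tumours of MCA205, a transplantable fibrosarcoma line, grown from 300000 injected cells. All 6 mice received oxaliplatin at 10 mg/kg on day 8 and, 8 days after it, 200 µg of an antibody against PD-1. In 3 mice an antibody (anti-DBI) that neutralises the protein made from Dbi, which binds acyl-CoA, was added at 2.5 mg/kg every other day. The other 3 mice received an IgG2a isotype antibody on the same schedule, which began 2 days before oxaliplatin and ended the day before the antibody against PD-1. No group went without oxaliplatin or anti-PD-1. Tumours were taken 2 days after the last treatment, CD4 and CD8 T cells were sorted and mixed at equal numbers, and 10000 cells were loaded for 5′ single-cell RNA and receptor sequencing. Each library is 1 mouse, and both size classes come from every library.

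A T cell that recognises its antigen divides, and its progeny keep its receptor, so that the number of cells with 1 receptor measures how far that cell has expanded. In tumours, expanded CD8 T cells are known for granzymes and perforin, which kill target cells, and for inhibitory receptors such as PD-1. T cells that keep the transcription factor TCF-1, the product of Tcf7, are known as a less differentiated pool that can renew itself, and naive T cells express it as well. Type I interferon induces a set of antiviral genes in most cells, T cells included.

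The CDR3 sequences of the largest clone of each library are shown because they define the clones and show how different the expanded receptors were. They are written 5′ to 3′, and capitals mark the junction, the bases that could not be matched to the usual end of the V gene or start of the J gene in these libraries.
Isotype 1, TRBV20 with TRBJ2-7, 258 cells: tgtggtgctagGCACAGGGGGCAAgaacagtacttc
Isotype 2, TRBV5 with TRBJ2-7, 158 cells: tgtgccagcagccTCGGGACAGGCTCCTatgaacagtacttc
Isotype 3, TRBV13-1 with TRBJ2-7, 178 cells: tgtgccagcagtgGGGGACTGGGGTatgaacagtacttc
Anti-DBI 1, TRBV12-2 with TRBJ2-5, 493 cells: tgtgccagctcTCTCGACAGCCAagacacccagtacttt
Anti-DBI 2, TRBV12-2 with TRBJ2-5, 70 cells: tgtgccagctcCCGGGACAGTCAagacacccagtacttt
Anti-DBI 3, TRBV5 with TRBJ2-3, 133 cells: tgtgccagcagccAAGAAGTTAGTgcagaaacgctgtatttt
The largest clones of anti-DBI 1 and anti-DBI 2 used the same V and J genes and had junctions of 12 bases, but different sequences. In each of these 6 clones every cell with a single alpha chain carried the same one. The modal alpha chain had a median share of 100% over the 205 large clones with such cells, exceeded 90% in 188 of them and was lowest at 50%.

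The 206 large clones held between 63.8% (anti-DBI 2) and 79.0% (isotype 3) of the counted cells of a library. Their number ran from 27 in isotype 2 to 41 in isotype 1, and the singletons from 91 in isotype 3 to 171 in anti-DBI 1. The largest clone took 18.6% of the cells of anti-DBI 1 and 5.97% to 11.5% of the other libraries. The clone sizes had no gap at the limit: 12 clones had 9 cells, 8 had 10, and 222 had 2. Large clones held 75.2 ± 3.33% of cells in isotype and 68.8 ± 7.78% in anti-DBI libraries, and singletons 6.19 ± 1.02% and 8.14 ± 1.48% (SD, n = 3 each). The libraries of both treatments overlapped in each share, and no test is given, since clone size chose the members.

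**Figure D1:**
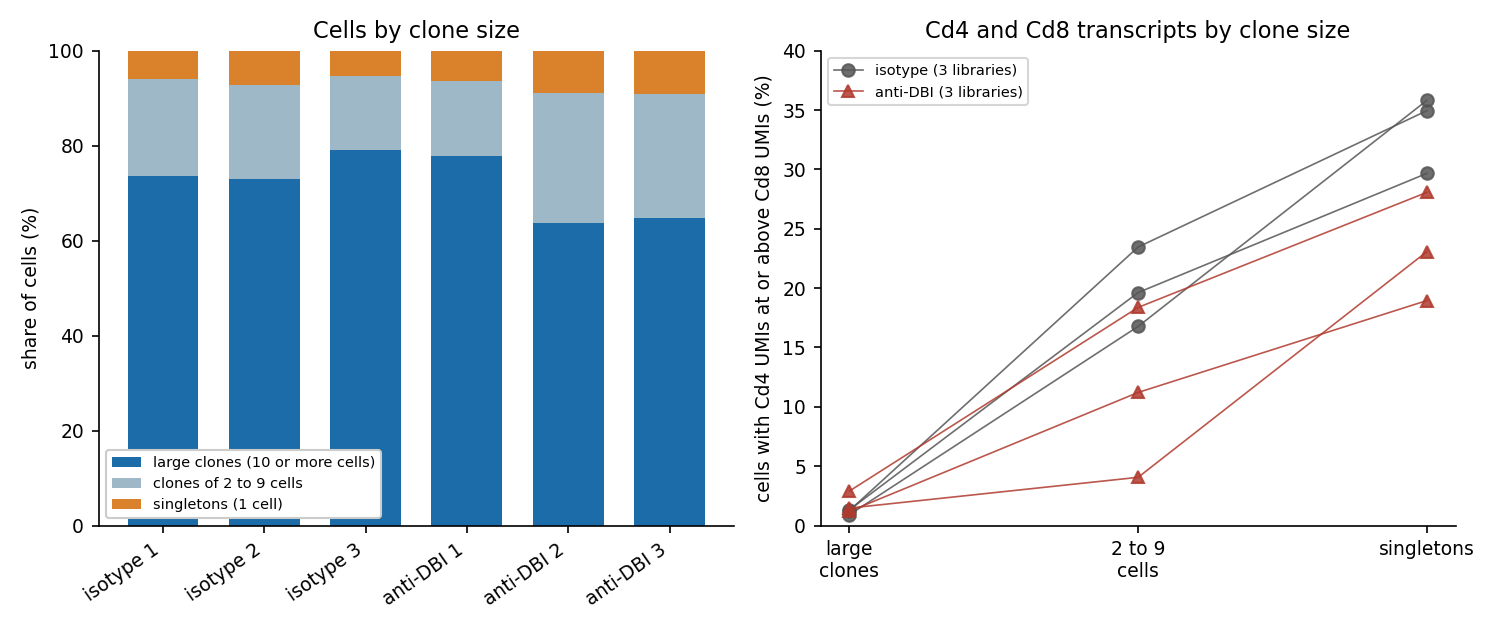
Share of the counted cells in large clones, middle clones and singletons in each of the 6 libraries, as stacked bars (left). On the right is the percent of cells in which Cd4 transcripts equalled or exceeded those of Cd8, by size class, with 1 line per library. Large clones hold 63.8% to 79.0% of the cells in each library, and the percent on the right is highest in singletons in every library.

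Mean CDR3 length was 41.9 bases in large clones and 42.0 in singletons (exact sign-flip permutation p = 0.75, n = 6 libraries). TRBV14 was used by 2.07% of large clones and 8.54% of singletons and TRBV3 by 1.95% and 9.16%, both lower in large clones in 6 of 6 libraries (exact permutation p = 0.03125 for each, the smallest that 6 pairs allow; 0.188 after adjustment over the receptor measures, among them 10 V genes). TRBV5 was used by 16.4% of large clones and 6.87% of singletons, higher in 5 of 6 libraries (exact permutation p = 0.0625, adjusted 0.188). These values include cells with Cd4 transcripts. Counted over cells with Cd8 and no Cd4 transcripts, TRBV3 was used by 1.08% of large clones and 3.67% of singletons, a smaller difference. TRBV14 was then used by 2.14% and 11.5%, and TRBV5 by 16.6% and 7.21% (exact permutation, adjusted p = 0.117 for TRBV3 and TRBV14 and 0.156 for TRBV5). Of 1490 receptors, 46 were seen in more than 1 mouse, among them those of 23 large clones (11.2%) and 27 singletons (3.57%). Of 30207 cell barcodes in the table, 536 occurred in more than 1 library, 60 of them among the counted cells, and none of these had the same receptor in both.

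Singletons held many cells with CD4 transcripts, which moves with every comparison below. Cd4 UMIs (unique molecules counted) equalled or exceeded those of Cd8a and Cd8b1 in 0.911% to 2.91% of large-clone cells per library, 4.06% to 23.5% of middle-clone cells and 18.95% to 35.8% of singletons. In all, 212 of 756 singletons (28.0%) were of this kind, among them the 4.23% with neither transcript, and in cluster 3 it was 61.8%. Among the large clones 8, with 122 cells and at least 1 in every library, consisted of such cells (at least 91.7% of each clone), while the others held at most 8.33%. A list of 5 CD4 markers summed to 21.9 to 54.5 CPM (counts scaled to the same total in every library and class) in large clones and to 156 to 399 CPM in singletons. The values are therefore given for 2 sets, all cells and CD8-only cells, the latter those with a Cd8a or Cd8b1 UMI and no Cd4 UMI. This leaves 7744 cells of large clones and 537 singletons, in which the CD4 list summed to 10.2 to 14.8 and 11.5 to 37.2 CPM. Markers of gamma-delta T cells (at most 1.19 CPM), B cells (at most 6.11 CPM) and neutrophils (at most 2.91 CPM) stayed near 0 in both classes. Other lists did not. Natural killer cell markers summed to 14.7 to 33.7 CPM in large clones and 12.1 to 146 CPM in singletons, and to as much as 214 CPM in CD8-only singletons. Dendritic cell markers summed to 45.6 to 132 and 83.4 to 193 CPM, and macrophage markers to 10.7 to 16.2 and 9.70 to 27.1 CPM. No tested member of the natural killer, dendritic cell and macrophage lists passed in either set. Of the regulatory T cell list, 1 of 6 tested genes was lower in large clones with all cells, Foxp3 (log2 fold change -1.38 ± 0.41, adjusted p = 0.0342). It had 0 to 7.21 CPM in large clones and 0 to 14.5 CPM in singletons. With CD8-only cells 1 of 5 was higher and none lower. The 1 tested gene of the fibroblast or tumour cell list was higher in both sets.

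The counts of 1 cell refer to clusters 0, 3 and 6. Over all cells of the same library 511 of 756 singletons (67.6%) remained alone, and 35 belonged to receptors with 10 or more cells. Among CD8-only singletons 446 of 537 (83.1%) remained alone and 1 belonged to such a receptor. Of the 212 singletons with Cd4 UMIs at or above Cd8 UMIs, those with neither included, 62 remained alone and 33 belonged to such a receptor. Large clones had 23.03 ± 3.57% of the cells of their receptors in other clusters and singletons 58.5 ± 15.8% (SD, n = 6). For receptors of CD8-only cells the shares were 20.4% and 19.9%. Only the cells inside the clusters were then filtered by Cd4 and Cd8 UMIs, not those outside. No test is given, because the size limits count cells inside the clusters and so bear on these shares. Of the outside cells, 46.6% lay in cluster 4 for large clones and 60.0% in cluster 1 for singletons. For receptors of CD8-only cells, cluster 4 held 54.2% of the unfiltered outside cells of large clones and 48.8% of those of singletons. Cluster 1 held 18.8% and 34.6%.

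Within clusters 0, 3 and 6, the share of cells in cluster 3 was 18.8 ± 5.29% in large clones and 11.6 ± 5.97% in singletons with CD8-only cells (SD, n = 6). With all cells it was 19.4% and 23.1%, in the other direction. These shares are a description, since the rule used the clusters. Of the 206 large clones 175 had most of their cells in cluster 0, 16 in cluster 3 and 1 in cluster 6, and 111 had cells in all 3. The share of cells called G1, from the deposited phases, was 76.3% and 78.4% (exact permutation p = 0.219). Median UMIs per cell were 6588 ± 1323 in large clones and 5454 ± 1056 in singletons (SD, n = 6), higher in 6 of 6 libraries (exact permutation p = 0.03125, adjusted 0.0469). With every cell thinned to 2000 UMIs both classes had about the same number of genes per cell, 985 and 992 (exact permutation p = 0.219).

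Large clones differed from singletons of the same mouse in 532 of 9484 genes tested. Of these, 238 were higher in large clones (2.51% of the genes tested) and 294 lower (3.1%). With CD8-only cells 523 of 9442 genes passed, 270 higher (2.86%) and 253 lower (2.68%), and without isotype 1 it was 346 genes. The 2 sets shared 321 genes, 60.3% of the first and 61.4% of the second, and 501 of the 523 all-cell calls that could be tested again kept their sign. Tcf7 and some other naive and progenitor genes, many interferon-induced genes and the chemokine receptor gene Cxcr3 were lower in large clones. Gzmb (granzyme B), Pdcd1, Havcr2, Mt2 (metallothionein 2) and some glycolysis and cell cycle genes were higher. Cd4 itself had the largest change, from 115 to 246 CPM in singletons to 9.51 to 32.5 CPM in large clones (log2 fold change -3.58 ± 0.33, SE; adjusted p = 0.00347).

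**Figure D2:**
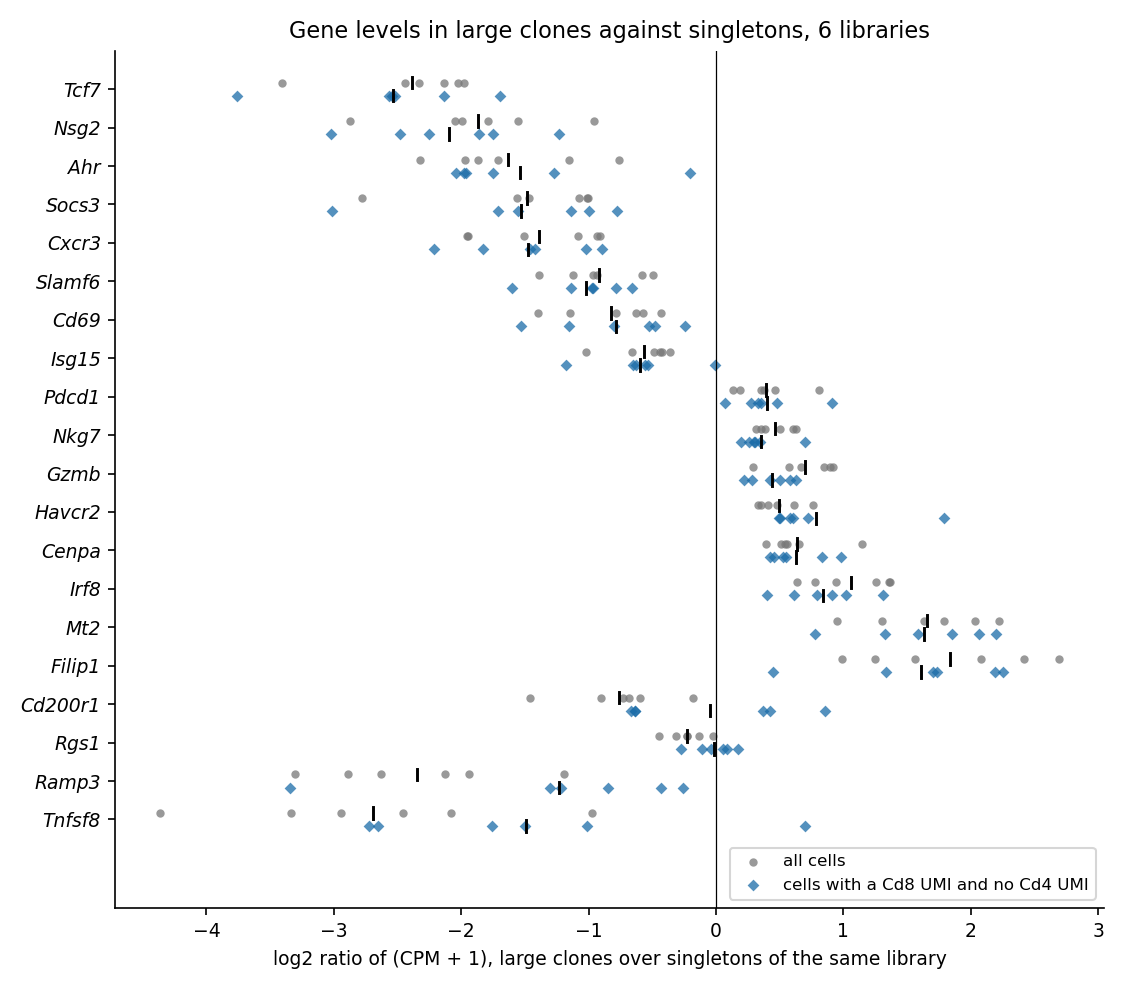
Log2 ratio of CPM plus 1, large clones over singletons, for named genes in each of the 6 libraries, with all cells in grey, CD8-only cells in blue and black ticks at the means. Tcf7 lies below 0 and Mt2 above 0 in every library for both sets of cells, while Cd200r1 and Rgs1 scatter around 0 once cells with Cd4 transcripts are left out.

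Of the naive and central memory genes, 5 of 16 tested fell and 1 rose in large clones, with a median log2 fold change of -0.47 against 0.00 over all genes. With CD8-only cells 6 of 17 fell, none rose, and the median was -0.62. Tcf7, which encodes TCF-1, had between 8.31 and 17.01 CPM in CD8-only cells of large clones, with a median of 9.75. In CD8-only singletons it had between 45.1 and 125 CPM, with a median of 59.7. The lowest singleton value lay above the highest large-clone value. The log2 fold change was -2.58 ± 0.21 (SE; adjusted p = 2.64e-07), and -2.42 ± 0.16 with all cells.
Ccr7, the receptor that guides T cells to lymph nodes, did not pass, with a log2 fold change of -0.62 ± 0.29 in CD8-only cells (adjusted p = 0.371). Il7r, the interleukin-7 receptor, had medians of 335 and 315 CPM and did not pass (log2 fold change 0.13, adjusted p = 0.414). Ccr7 and Il7r were picked after their values were seen. Nsg2, a member of the list, ran from 2.29 to 3.64 CPM in large clones and from 8.30 to 36.7 CPM in singletons (log2 fold change -2.41 ± 0.31, adjusted p = 6.29e-07, CD8-only).

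The progenitor-exhausted and stem-like list, which shares members with the naive one, Tcf7 among them, had 7 of 13 genes lower and none higher, with a median log2 fold change of -0.66. With CD8-only cells 6 of 14 were lower and 1, the costimulatory receptor gene Icos (0.24), was higher, with a median of -0.76. Cxcr3, the receptor for interferon-induced chemokines, ran from 16.4 to 45.2 CPM with a median of 32.1 in CD8-only cells of large clones. In CD8-only singletons it ran from 60.9 to 114 CPM with a median of 87.6. The groups did not overlap, and the log2 fold change was -1.34 ± 0.13 (adjusted p = 5.66e-08). Slamf6, a surface receptor used to mark progenitors, was lower in 6 of 6 libraries (log2 fold change -1.04 ± 0.19, adjusted p = 0.000341, CD8-only), with medians of 11.1 and 26.9 CPM. Tnfsf8, which encodes CD30 ligand and is also a marker on the CD4 list, fell by 3.17 on the log2 scale with all cells and by 2.05 with CD8-only cells, where 1 of 6 libraries went the other way.
Other genes that were lower in both sets of cells were Pou6f1 (a POU domain transcription factor, -2.19 with CD8-only cells), Dtx1 (a regulator of Notch signalling, -2.05), Ramp1 (a coreceptor for the neuropeptide CGRP, -1.05) and Cxcr4 (the receptor for CXCL12, -0.84). Cells with CD4 transcripts move with several others. Lgals7 (a galectin) fell by 3.11 on the log2 scale with all cells and had -0.43 in CD8-only cells (adjusted p = 0.735), and Scin (scinderin, which severs actin) fell by 2.59 and had -0.18 (adjusted p = 0.936). Ramp3, a second receptor partner of this family, fell by 2.27 and had -1.11 (adjusted p = 0.273), Cd200r1 (an inhibitory receptor) fell by 0.79 and had -0.28 (adjusted p = 0.613), and Ebi3 (a cytokine subunit) fell by 2.48 and was too low to be tested in CD8-only cells.

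Cytotoxic effector genes were higher in part. Of 23 tested, 6 rose and 1, Srgn (the granule proteoglycan serglycin, -0.16), fell with all cells, with a median log2 fold change of 0.09. With CD8-only cells 7 of 23 rose, none fell, and the median was 0.11. Gzmb, the gene of granzyme B, ran from 2506 to 5455 CPM with a median of 3704 in CD8-only cells of large clones and from 1617 to 4679 CPM with a median of 2761 in singletons. The ranges overlapped between mice, but large clones were higher in 6 of 6 (log2 fold change 0.47 ± 0.05, adjusted p = 2.13e-07). With all cells the log2 fold change was 0.72 ± 0.09. Nkg7, a protein of cytotoxic granules, had medians of 3543 and 2873 CPM, with no overlap between the classes (log2 fold change 0.37 ± 0.05, adjusted p = 4.89e-06, CD8-only). Klrd1, the CD94 chain of natural killer receptors (0.36), and the fractalkine receptor gene Cx3cr1 (0.49) were also higher in both sets of cells. Klrk1, which encodes NKG2D, rose by 0.43 with all cells and had 0.15 in CD8-only cells (adjusted p = 0.337).
Perforin, Prf1, had medians of 615 and 298 CPM in CD8-only cells and was higher in 5 of 6 libraries, but did not pass (log2 fold change 1.11 ± 0.29, adjusted p = 0.128). Ifng, the gene of interferon gamma, did not pass either (log2 fold change -0.94 ± 0.38, adjusted p = 0.334 with all cells and -0.17 ± 0.43, adjusted p = 0.933 with CD8-only cells). The granzymes C to G, close relatives that could share reads, gave different calls by cell set. With all cells Gzmg (2.19, adjusted p = 0.0182) and Gzmf (1.35, adjusted p = 0.0172) passed of 5 tested. In CD8-only cells their log2 fold changes were 2.05 and 1.498 with adjusted p = 0.0599 and 0.0752, and only Gzme passed (2.01 ± 0.32, adjusted p = 0.0281), which had -0.37 with all cells. The summed CPM of the 5 genes was higher in large clones in 6 of 6 libraries with CD8-only cells (mean log2 ratio 1.505 ± 0.77, SD) and in 5 of 6 with all cells (0.64 ± 0.46).

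Of the exhaustion and inhibitory receptor genes, 6 of 24 rose and 2 fell with all cells (median log2 fold change 0.17), and 6 rose and 1 fell with CD8-only cells (median 0.30). Havcr2, the gene of TIM-3, ran from 235 to 321 CPM with a median of 261 in CD8-only cells of large clones and from 67.3 to 228 CPM with a median of 173 in singletons. No library's singletons reached the lowest large-clone value (log2 fold change 0.70 ± 0.10, adjusted p = 0.000454). Pdcd1, the gene of PD-1, ran from 785 to 987 CPM with a median of 896 in large clones and from 483 to 942 CPM with a median of 671 in singletons, with overlap between mice and a rise in 6 of 6 (log2 fold change 0.41 ± 0.07, adjusted p = 0.000472, CD8-only). Lag3 was higher in 6 of 6 libraries but did not pass (0.65 ± 0.17, adjusted p = 0.117), and Tox, a transcription factor of exhausted cells, had -0.19 ± 0.26 (adjusted p = 0.827).

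Metallothioneins, small proteins that bind zinc and copper, were among the largest rises. Mt2 ran from 48.2 to 112 CPM with a median of 96.6 in CD8-only cells of large clones and from 15.4 to 60.9 CPM with a median of 24.1 in singletons. Large clones were higher in each library, with a log2 fold change of 1.48 ± 0.15 (adjusted p = 2.09e-07). Mt1 had medians of 636 and 227 CPM and passed with all cells (1.31 ± 0.22, adjusted p = 0.0322) but not with CD8-only cells (1.28 ± 0.28, adjusted p = 0.0801). Filip1, which encodes a filamin-interacting protein, ran from 19.4 to 36.1 CPM in large clones and from 3.47 to 20.02 CPM in singletons (log2 fold change 1.54 ± 0.23, adjusted p = 1.3e-05, CD8-only). Fcrl6 (1.32), an Fc receptor-like protein, Gstt1 (1.09), a glutathione transferase, and Spats2, Tmem273 and Dmwd (1.27, 1.36 and 1.11) were higher in both sets of cells. Irf8, a transcription factor of the interferon regulatory family, ran from 211 to 379 CPM in large clones and from 87.4 to 186 CPM in singletons, with no overlap (log2 fold change 0.82 ± 0.09, adjusted p = 4.91e-07, CD8-only).

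For most called genes, the mean CPM of middle clones lay between those of large clones and singletons. This held for 508 of the 532 genes called with all cells and 502 of the 523 called with CD8-only cells. These genes were chosen by the difference between the outer classes, which in part sets a middle position in advance. No share over all genes tested is given, so the counts are a description. Large clones differed from middle clones in 232 of 9824 genes (2.36%), and middle clones from singletons in 117 of 7841 (1.49%). These comparisons share samples with the main one, and with CD8-only cells the counts were 264 and 73. With all cells the first was 143 without isotype 3, and the second 59 without anti-DBI 1 and 72 without anti-DBI 3. In CD8-only cells Tcf7 averaged 68.2 ± 28.9 CPM in singletons, 23.4 ± 12.5 in clones of 2 to 4 cells and 17.2 ± 6.75 in clones of 5 to 9 (SD, n = 6). It averaged 15.3 ± 4.96, 9.10 ± 3.42 and 10.5 ± 6.94 CPM in clones of 10 to 19, 20 to 49, and 50 or more cells. The step between singletons and clones of 2 to 4 cells was thus the widest. Every library was also lower in clones of 20 to 49 cells than in clones of 10 to 19. The means of 20 to 49 and of 50 or more cells lay within their spread between mice. No test compared these sizes. Mt2 averaged 29.0 ± 16.1 CPM in singletons, 54.5 ± 32.4 in clones of 2 to 4 cells and 89.6 ± 38.4 in clones of 50 or more. Just inside and outside the limit, pooled CD8-only cells of clones of 10 cells had 39.2 CPM of Tcf7 and those of clones of 9 cells 17.3 CPM. These values rest on only 70 and 90 cells, and no spread over libraries is given.

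**Figure D3:**
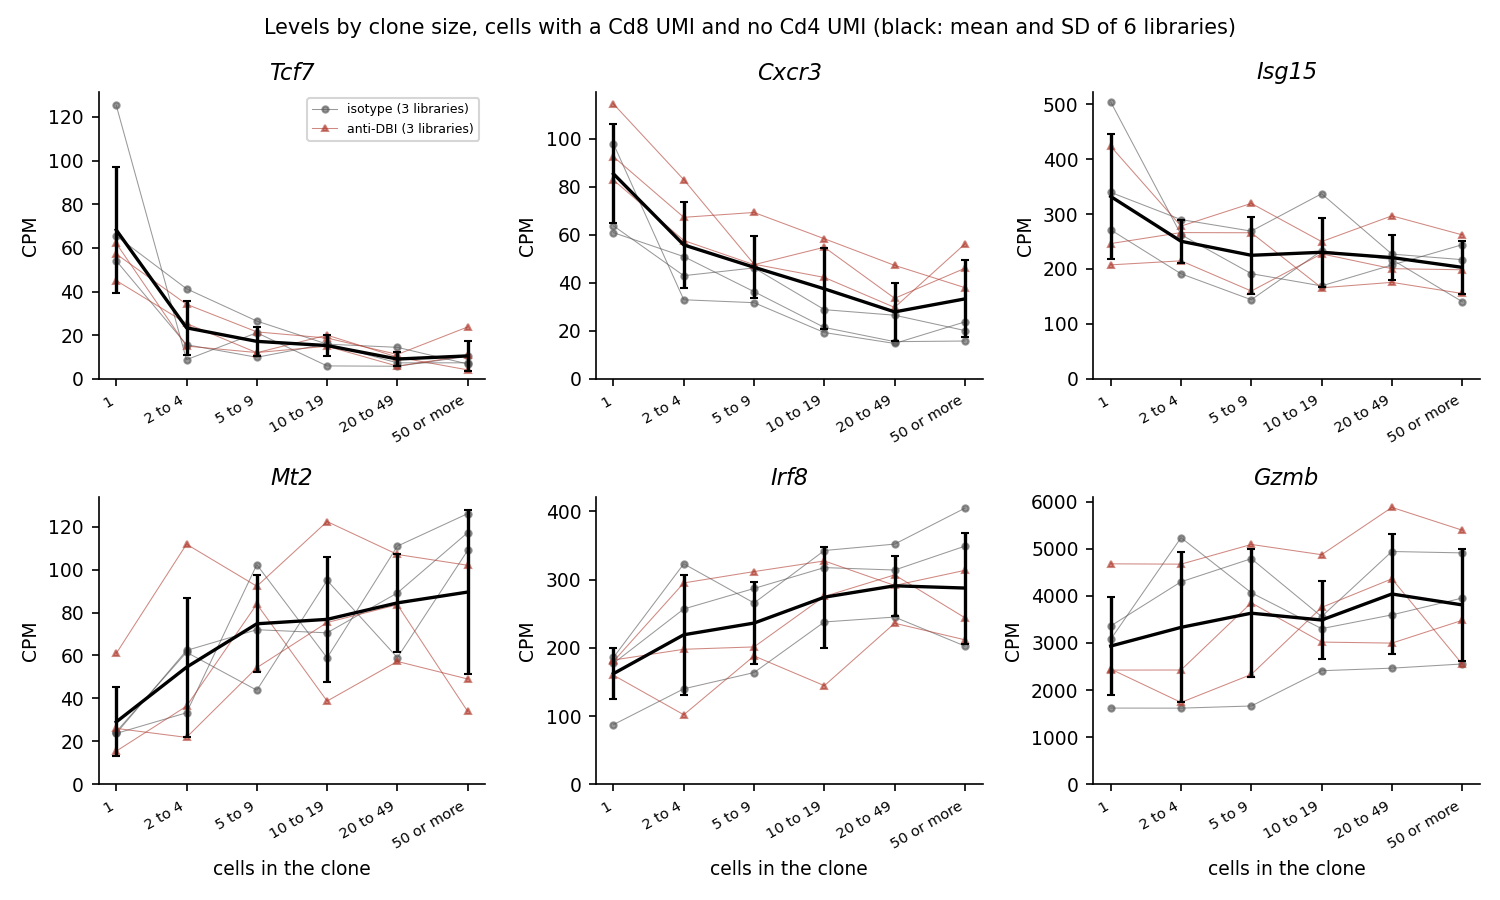
Mean CPM with SD over the 6 libraries in CD8-only cells by clone size, from 1 cell to 50 or more, for genes lower or higher in large clones. Tcf7 falls from 68.2 CPM in singletons to 23.4 CPM in clones of 2 to 4 cells and 10.5 CPM in the largest clones.

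Listed values of single large clones varied widely. The median large clone held 21 cells, so low levels rest on few UMIs and a listed 0 can come from sampling. How much of the spread is counting was not tested. All cells of each of the 206 clones were set beside the CD8-only singletons, the 8 clones included whose cells mostly had Cd4 UMIs at or above Cd8 UMIs. Tcf7 was listed at 0 in 81 of 206 large clones and lay below the CD8-only singletons of the same library in 191, Cxcr3 in 187 and Cd69 in 179. Havcr2 lay above them in 183 clones, Nkg7 in 175, Mt2 in 154 and Gzmb in 128. Over the 206 clones Gzmb ran from 116 to 11662 CPM with a median of 3236, and Gzmf from 0 to 15405 CPM with a median of 1641. The largest clones printed above show that spread: Gzmf had 133 CPM in the clone of anti-DBI 2 and 9054 CPM in that of isotype 3, and Gzmb 2014 and 4853 CPM.

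Of 39 genes of the type I interferon response tested with all cells, 19 were lower in large clones and none higher, with a median log2 fold change of -0.35. With CD8-only cells 27 of 39 were lower, none higher, all 39 estimates were negative and the median was -0.48. Isg15, a ubiquitin-like protein induced by interferon, ran from 167 to 269 CPM with a median of 214 in CD8-only cells of large clones and from 207 to 504 CPM with a median of 305 in singletons. The ranges overlapped between mice, and the value was lower in 6 of 6 libraries (log2 fold change -0.57 ± 0.12, adjusted p = 0.0175; -0.53 ± 0.07 with all cells). Ifit3, which binds viral RNA together with other Ifit proteins and was picked after its values were seen, had 38.5 to 66.1 CPM in large clones and 76.3 to 169 CPM in singletons, with no overlap (log2 fold change -1.03 ± 0.16, adjusted p = 0.00193). Ifih1, the RNA sensor MDA5 (-0.72), and Ifi27l2a (-0.35) were lower as well. Of the 39 genes the largest fall was that of Oasl1, an oligoadenylate synthetase-like protein (-2.42, adjusted p = 0.000379). With all cells Ifit3 had -0.95 ± 0.13 (adjusted p = 0.000144). With at most 10 cells per clone Ifit3 did not pass (-0.61 ± 0.20, adjusted p = 0.176), and with thinned cells it did (-0.997 ± 0.14, adjusted p = 2.29e-06).
The summed CPM of the 45 listed genes was lower in large clones in 6 of 6 libraries, with a mean log2 ratio of -0.35 ± 0.14 for all cells and -0.42 ± 0.18 for CD8-only cells (SD).

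Because 27 of the interferon genes were lower and none higher, the promoters of the list were searched on both strands for GAAA followed, after any pair of bases, by a second GAAA (TTTC and TTTC on the other strand), the core of the element bound by interferon-activated complexes, with overlapping matches counted. In the RefSeq promoter table (GRCm38.p6, 250 bases before to 50 after the start), 1079 of 27025 genes (3.99%) held a match. So did 303 of 7566 tested genes (4.005%), 22 of 35 list members in the table (62.9%) and 17 of 22 members that were lower in CD8-only cells (77.3%). The bases before the start are shown for Isg15 and Ifit3, with matches in capitals, as examples of members that were lower in every library.
Isg15, chr4:156200819-156201068, minus strand: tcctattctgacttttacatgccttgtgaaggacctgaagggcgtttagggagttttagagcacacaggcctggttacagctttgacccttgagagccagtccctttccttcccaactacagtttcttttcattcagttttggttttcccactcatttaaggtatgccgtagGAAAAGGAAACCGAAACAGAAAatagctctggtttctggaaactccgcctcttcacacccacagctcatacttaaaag
Ifit3, chr19:34583279-34583528, plus strand: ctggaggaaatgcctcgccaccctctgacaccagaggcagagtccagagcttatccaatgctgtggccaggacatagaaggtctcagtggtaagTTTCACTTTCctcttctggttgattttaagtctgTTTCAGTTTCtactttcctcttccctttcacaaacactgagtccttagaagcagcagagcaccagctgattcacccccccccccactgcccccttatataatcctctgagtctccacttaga
The Isg15 window held 3 overlapping matches and the Ifit3 window 2 separate ones. A match describes the sequence only. The list was chosen as interferon-induced genes, which in part sets its share of matches in advance. Whether matches go with the fall in large clones was not tested.

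Glycolysis and hypoxia genes moved in 1 direction where they passed. Of 35 tested, 15 rose and none fell with all cells (median log2 fold change 0.21), and 16 of 34 rose and none fell with CD8-only cells (median 0.32). Eno1, the enolase, ran from 735 to 1481 CPM with a median of 999 in CD8-only cells of large clones and from 544 to 1065 CPM with a median of 710 in singletons. It was higher in 6 of 6 libraries (log2 fold change 0.43 ± 0.06, adjusted p = 3.25e-06). Gapdh (0.38) and Aldoa (0.36), enzymes of the same pathway, and Ldha (0.34), which makes lactate and was picked after its values were seen, did the same. Bnip3, a mitochondrial protein induced by hypoxia and picked likewise, had 0.75 ± 0.08 (adjusted p = 5.92e-08). The summed CPM of the list was higher in 6 of 6 libraries, with a mean log2 ratio of 0.26 ± 0.14 for all and 0.33 ± 0.17 for CD8-only cells (SD).

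**Figure D4:**
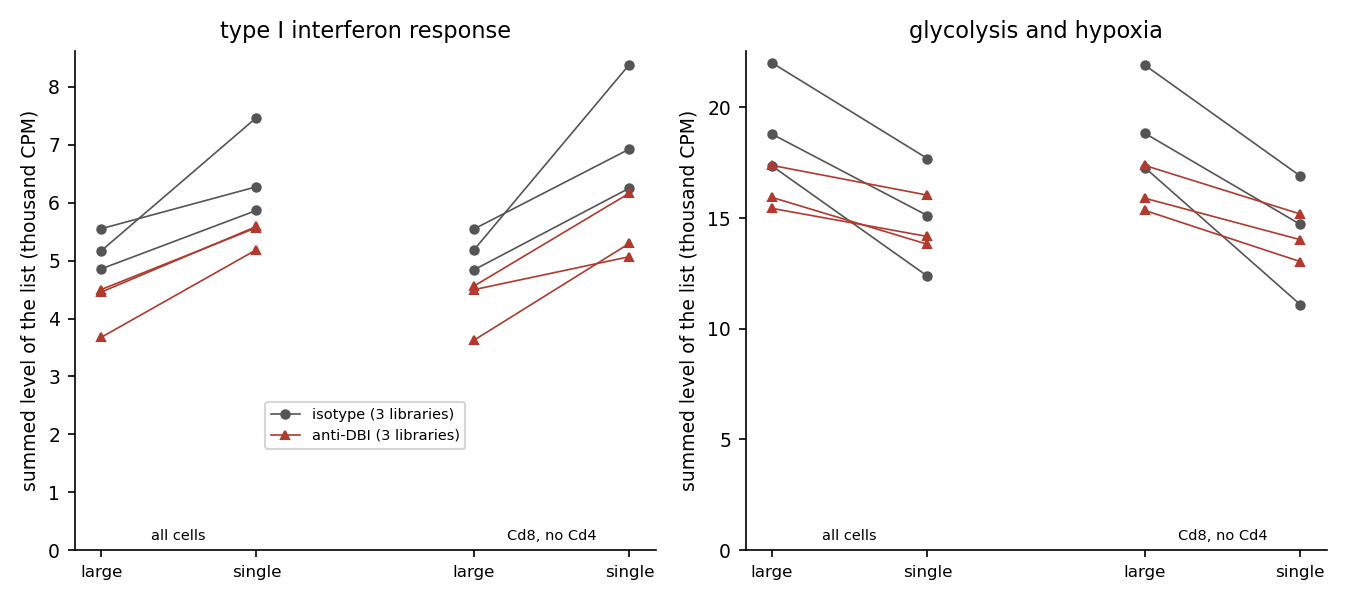
Summed CPM (axis in units of 1000 CPM) of the type I interferon and the glycolysis and hypoxia lists in large clones and singletons, joined by library, for all cells and for CD8-only cells. Every line rises to singletons on the left and falls to singletons on the right.

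Cell cycle genes rose in part: 7 of 42 were higher and none lower with all cells, and 6 of 41 with CD8-only cells (medians 0.24 and 0.29). Mki67, a marker of cycling cells, had medians of 30.03 and 20.2 CPM with CD8-only cells and was higher in 5 of 6 libraries (log2 fold change 0.82 ± 0.19, adjusted p = 0.00486). Cenpa, the centromeric histone, had medians of 133 and 92.0 CPM and was higher in 6 of 6 (0.69 ± 0.09, adjusted p = 8.9e-07). Ube2c (0.80) and Fen1 (0.81), of mitosis and DNA replication, passed in both sets of cells. The shares of cells in S and G2M, given by the deposited phases, did not pass (19.5% against 17.6% and 4.16% against 3.97%, exact permutation p = 0.25 and 0.781).

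The early activation list depended on the cells used. With all cells 12 of 29 genes were lower and 2 higher, with a median of -0.28, and with CD8-only cells 4 were lower and 5 higher, with a median of -0.03. Cd69, an early activation and residency marker, was lower in both: it ran from 51.9 to 80.4 CPM in CD8-only cells of large clones and from 86.7 to 152 CPM in singletons, with no overlap (log2 fold change -0.75 ± 0.12, adjusted p = 0.000432). Dusp1, a phosphatase, and Nfkbid, an inhibitor of NF-kappaB, fell by 0.64 and 0.88 with all cells and did not pass with CD8-only cells (adjusted p = 0.163 and 0.216). Rgs1, a regulator of G protein signalling, fell by 0.21 with all cells and had 0.01 with CD8-only cells (adjusted p = 0.982). The CD4 list was lower in large clones in the same direction as these genes, and its part in their values was not tested.

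Ahr, the aryl hydrocarbon receptor and a member of the residency list, ran from 4.10 to 8.66 CPM in large clones and from 8.30 to 36.7 CPM in singletons (log2 fold change -1.72 ± 0.25, adjusted p = 8.61e-06, CD8-only). That list had 3 lower and 1 higher of 12 genes with all cells, and 2 and 2 with CD8-only cells. The chemokine and homing receptors had 4 lower and 2 higher of 18 in both sets of cells. The T cell receptor complex list had 4 higher and 2 lower of 21 with all cells and 5 and 1 with CD8-only cells, the higher ones including Cd3e (0.18), Cd3g (0.27) and the adaptor gene Sh2d2a (0.33). The memory-like list had 4 higher and 2 lower of 19, and 3 and 1 with CD8-only cells, among the higher ones Il2rb (0.28), the beta chain of the interleukin-2 and interleukin-15 receptors. Natural killer receptors had 4 of 12 and 2 of 11 higher and none lower, with Klre1 (0.32) in both. Class I antigen presentation had 3 of 20 lower with all cells, H2-Q7 (-0.22), H2-K1 (-0.19) and the proteasome activator gene Psme2 (-0.19), and of these only H2-Q7 passed with CD8-only cells. The stress and dissociation list had 1 higher and 3 lower of 20, and 2 and 2, with Ier3 (0.83, an immediate early gene) higher and Socs3 (-1.70, a feedback inhibitor of cytokine signalling) lower in both. Of 51 ribosomal protein genes, none passed with all cells and 1 was lower with CD8-only cells.

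**Figure D5:**
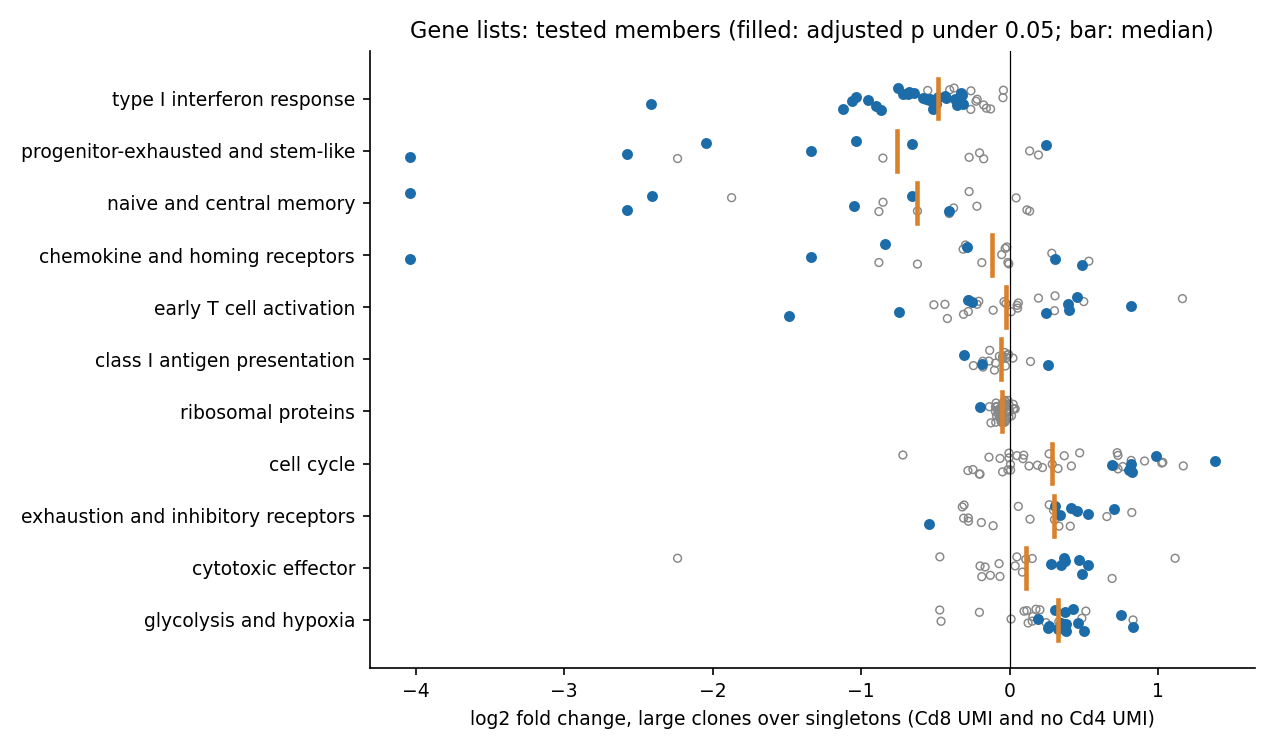
Log2 fold change, large clones over singletons, of the tested genes of selected lists in CD8-only cells. Filled points are genes that passed, and bars mark the median of each list. Among the genes that passed, the interferon list has 27 lower members and no higher one, and the glycolysis list 16 higher and no lower one.

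The change was also present inside cluster 0, in both sets of cells. Within cluster 0, 534 of 8817 genes (6.06%) differed with all cells and 421 of 8678 (4.85%) with CD8-only cells. Of the 523 genes called over CD8-only cells, 517 could be tested within cluster 0, all with the same sign, and 375 passed there. These fits share most of their cells. In cluster 3, Cd4 UMIs equalled or exceeded those of Cd8 in 61.8% of singletons and 4.51% of large-clone cells. There only 21 of 7379 genes (0.285%) passed with CD8-only cells, where only anti-DBI 1 and 3 had the 10 singletons required. In all cells of cluster 3 the count was 375 of 7249 genes (5.17%). With all cells it was 225 without isotype 1 and 245 without isotype 3. In cluster 6, with only 2 libraries, 17 of 4044 genes passed.

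Anti-DBI against isotype was compared within each class, 3 mice against 3. In large clones 59 of 10545 genes (0.56%) passed, and in singletons 24 of 7069 (0.34%). Of the 59, 47 could be tested in singletons, 5 passed and 44 had the same sign. Large clones and singletons come from the same mice, so a difference between the mice can appear in both classes. The shared signs are therefore not independent evidence for the treatment. No same-sign share over all genes tested in both classes is given, so these counts are a description. Fosb, which forms AP-1 dimers with Jun proteins, had 12.1, 9.86 and 10.8 CPM in large clones of isotype mice and 38.6, 40.8 and 44.0 CPM in those of anti-DBI mice. In singletons it had 18.3, 8.34 and 21.8 against 56.3, 51.2 and 56.3 CPM. Neither class overlapped between treatments, with log2 fold changes of 1.86 ± 0.12 (adjusted p = 0.00022) and 1.71 ± 0.28 (adjusted p = 0.00198).
Prdm1, the gene of the transcription factor Blimp-1, fell in large clones, where it had 49.8, 59.8 and 53.4 CPM against 17.7, 17.4 and 21.3 CPM (log2 fold change -1.56 ± 0.11, adjusted p = 0.000296). In singletons it had -1.03 ± 0.28 (adjusted p = 0.109). Cxcr3 was higher with anti-DBI in large clones, with 23.1, 20.2 and 16.2 CPM against 43.6, 40.5 and 44.5 CPM (1.07 ± 0.14, adjusted p = 0.00979). In singletons it had 0.56 ± 0.20 (adjusted p = 0.299), and the difference between the classes did not pass (0.48 ± 0.23, adjusted p = 0.812). In singletons Txnip, a thioredoxin-binding regulator of glucose uptake, rose from 129, 113 and 121 CPM to 314, 323 and 313 CPM (1.36 ± 0.13, adjusted p = 8.52e-07), and in large clones it had 0.94 ± 0.24 (adjusted p = 0.172). Except for Cxcr3 these genes were picked after their values were seen. Tcf7 did not pass in either class (0.35 ± 0.22, adjusted p = 0.522, and -0.14 ± 0.31, adjusted p = 0.949), and neither did Dbi between large clones and singletons (0.13 ± 0.07, adjusted p = 0.412).
The count in large clones rested on single mice: it was 383 without isotype 1, 9 without isotype 3, 14 without anti-DBI 1 and 11 without anti-DBI 2. In singletons it was 54 without isotype 2, 11 without anti-DBI 2 and 12 without anti-DBI 3. The change between large clones and singletons itself differed between treatments in 22 of 9945 genes (0.221%) with all cells and in 2 of 10024 with CD8-only cells, where 549 had an unadjusted p under 0.05. It was 8 without isotype 1, 34 without isotype 2 and 14 without anti-DBI 1.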

How the data were processed

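Values in the deposited matrices are raw UMI counts, whole numbers for each gene in each cell barcode, and the deposited receptor table holds UMI counts per contig. Cell Ranger 7.0.0, Seurat and mm10 are listed in the submitters' processing notes, with no role given. The matrix sum equalled the table's total in all 10878 cells. The summed counts were 413760 to 1193253 UMIs per library in singletons and 5898828 to 15854826 in large clones, which limits the precision of the former.

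Counts were summed per library and class and tested with edgeR 4.0.16 (R 4.3.3; quasi-likelihood F test, robust, TMM, filterByExpr, library as a block, Benjamini-Hochberg at 0.05, two-sided). CPM are of all counted genes. Receptor and immunoglobulin segment genes were left out. Fits within a cluster needed 10 cells per sum. Shares not used by the rule were compared between paired classes by exact sign-flip permutation (SciPy 1.17.1). The script was tested on simulated data.

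Named genes are Pdcd1, Gzmb, Ifng, Mki67, Tcf7 and Dbi, the 10 genes with the greatest rise and the 10 with the greatest fall among those that passed, averaged 10 CPM in a class and moved alike in all 6 libraries, and up to 3 members that passed of each of 17 lists. Genes named only by a number and mitochondrial genes were counted, not named. The members and lists were chosen with earlier results of these data known. CD8-only cells were added after Cd4 was seen to have the largest change. Alternatives covered scaling, filter, DESeq2 1.42.0, block, clone size and definition, clone weight, depth, phase and each library. Doublets were not called, and cells with 2 or more TRB were left out. The treatment of reads shared by gene families was not stated in the labels. A result on 1 gene is not reported here.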

Additional observations from a re-analysis of the deposited data

Results flagged for a closer look

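Of 77 values with 1 estimate per library, 6 had a library far from the other 5, where chance gives about 1 in 20. Isotype 2 stood apart for Tcf7, with a log2 difference of -3.41 between large clones and singletons against -2.44 to -1.97 in the others, for Dtx1 (-3.46 against -1.66 to -1.02) and for Cd3g (0.31 against 0.12 to 0.18). Isotype 1 stood apart for Tmem273 (3.82 against 0.20 to 1.26) and Cenpa (1.15 against 0.40 to 0.65), and anti-DBI 1 for Socs3 (-2.77 against -1.56 to -1.002). In all 6 genes the direction was the same in each library.

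For 5 named genes the change between large clones and singletons differed between treatments with all cells (edgeR, class by treatment term, anti-DBI minus isotype, log2): Mt1 by -0.94 (adjusted p = 1.65e-05), Cd4 by 1.397 (adjusted p = 1.65e-05), Tnfsf8 by 1.86 (adjusted p = 0.034), Ebi3 by 2.31 (adjusted p = 0.00399) and Ramp3 by 1.14 (adjusted p = 0.0109). With CD8-only cells Gzme (-1.93) and Sdf4 were the only genes that passed.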

How the results depend on the processing

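Without a library block the count of genes that differed between large clones and singletons was 175 in place of 532, and with cells thinned to 2000 UMIs 284. It was 409 to 483 when each library was left out in turn, 346 to 442 with CD8-only cells, and 395 to 495 within cluster 0. Within cluster 3 it was 21 with CD8-only cells, 582 with no filter and 225 to 360 without each library. Large against middle clones gave 414 genes with no filter and 143 to 251 without each library, and middle clones against singletons 73 with CD8-only cells, 199 with no filter and 59 to 112 without each library. For the treatment in large clones the count was 263 with no filter and 9 to 383 without each library, in singletons 14 with CD8-only cells, 88 with no filter and 11 to 54 without each library, and for the difference of the change 2 with CD8-only cells, 57 with no filter and 8 to 34 without each library. The replicate block gave 216 genes in large clones and 38 in singletons, but nothing ties mice of the same number, whose deviations correlated by 0.207, 0.0396 and -0.0896 across genes in large clones and 0.065, 0.0201 and -0.00625 in singletons. Rgs1 turned to 0.0077 with CD8-only cells and Ifng to 0.28 with clone size counted over all cells. The cluster 0 share difference turned to -7.74 points with CD8-only cells and -0.840 without isotype 1 (up to 4.94 without the other libraries). With CD8-only cells that of cluster 3 turned to 7.18 and that of genes per thinned cell to 0.583. That of cells outside the clusters turned to 0.458 for receptors of CD8-only cells, with the outside cells not filtered. The CDR3 difference turned to 0.219 bases with large clones of 20 or more cells, 0.154 with those of at least 1% and 0.0446 without isotype 2 (as low as -0.153 without the others). The number of large clones, anti-DBI minus isotype, turned to -1.33 at 20 or more cells, -2.83 without isotype 2 and -1.50 without anti-DBI 1, and was as high as 4.17 without isotype 1. With 5 pairs no exact p can fall below 0.0625, which ends the call of median UMIs (990 to 1231). The difference of cells outside the clusters, in part set by the size limits, was -40.7 to -32.1 points. Cluster 6 could not be fitted without 1 of its 2 libraries. Of 58 named genes tested with CD8-only cells 45 kept direction and side of the threshold, 12 lost the call and 1 reversed. For the other changed counts the cause was not tested.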

Other observations

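Some genes that the text has not named, chosen after their values were seen, changed side between the sets of cells. Igfbp7, a secreted growth factor-binding protein, was lower in large clones with all cells (log2 fold change -1.32 ± 0.26, adjusted p = 0.0153) and higher with CD8-only cells (2.32 ± 0.40, adjusted p = 0.000116), where it had 8.31 to 20.2 CPM in large clones and 0 to 6.11 CPM in singletons. Areg, the EGF receptor ligand amphiregulin, had -2.03 ± 0.98 (adjusted p = 0.431) with all cells and 2.81 ± 0.42 (adjusted p = 1.86e-05) with CD8-only cells. Both are fitted on few counts in CD8-only singletons.

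Others of this kind were alike in both sets of cells. Gpr18, a G protein-coupled receptor, had 14.8 to 36.4 CPM in CD8-only cells of large clones and 51.0 to 88.7 CPM in singletons (-1.35 ± 0.13, adjusted p = 2.71e-09). Bcl6, a transcriptional repressor, had -1.24 ± 0.23 (adjusted p = 0.000316) and was lower in 5 of 6 libraries. Trat1, an adaptor of the T cell receptor, had -1.53 ± 0.23 (adjusted p = 1.05e-05). Gldc, the glycine decarboxylase, was higher, with 10.7 to 33.2 CPM in large clones and 0 to 12.1 CPM in singletons (1.72 ± 0.24, adjusted p = 3.3e-06), and so was Slc17a6, a vesicular glutamate transporter (1.39 ± 0.19, adjusted p = 3.23e-06).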
